A study of Planococcus citri with 8 samples.

Results

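Chitin binding and chitin metabolism genes of the citrus mealybug *Planococcus citri* were compared between virgin and mated females. Members were the gene models whose InterPro entry in the deposited annotated table is the chitin-binding domain (IPR002557), glycoside hydrolase family 18 (IPR001223) or the NodB homology domain (IPR002509). The rule uses annotation only and no measured value. It found 40 of the 17669 gene models of that table, which is itself part of 40620 gene models counted. Of these, 31 carry the chitin-binding domain, 8 belong to glycoside hydrolase family 18 and 1 carries the NodB domain. The table gives 1 entry per gene model and leaves out most of those counted, by a filter the sources used here do not give. A chitin gene listed under another entry or left out of the table is therefore not among the members. All 40 were tested.

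The study asked which genes differ in expression between virgin females, which make sex pheromone, and mated females. RNA-seq of polyadenylated RNA was done on 4 pools of virgin females (replicates 2, 3, 5 and 6) and 4 pools of mated females (replicates 8, 9, 10 and 11), each of about 150 whole insects or 100 mg. The females of both groups came from a laboratory colony reared on lemons. Mated females were collected from the stock colony after ovisacs had appeared, and virgin females from separate lemons from which male cocoons had been removed, so mating, egg laying and rearing cannot be told apart in the comparison. The sources used here give neither a strain nor an age for the pooled females. Because whole insects were extracted, fewer cells of a type and less RNA per cell cannot be told apart.

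Chitin is a polymer of N-acetylglucosamine that stiffens the insect cuticle and, in many insects, a lining of the midgut. The peritrophin-type chitin-binding domain occurs in secreted proteins of both layers and holds them to the polymer. Family 18 enzymes include the chitinases that break chitin down at the moult, and the family also holds imaginal disc growth factors and other proteins that bind sugars without cutting them. The NodB domain is the catalytic part of chitin deacetylases, which remove acetyl groups and so change how tightly chitin fibres and proteins pack. An InterPro entry does not say which of these roles a given member has, and no gene name is given to any of the 40 here.

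Library totals ran from 29667566 to 50301861 counts, and 3 counts corresponded to 0.0624 to 0.0982 CPM at these depths. CPM are counts scaled to a common library total, here with TMM factors, and all levels are in this unit. Virgin replicate 2 stood apart from the other virgin pools. On the first principal component of all tested gene models (76.9% of the variance) it lay at -8.55, against -131.1 to -152.6 for the other virgin pools and 83.3 to 139.0 for the mated pools. Its mean correlation across genes was 0.912 with its own group and 0.921 with the mated pools. Counts in this library touch most results that follow. Fold changes are log2 values of virgin over mated females with their standard error (SE), from edgeR's quasi-likelihood test with Benjamini-Hochberg adjustment over 21179 tested gene models, and a call was made at an adjusted p under 0.05.

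Chitin gene models moved in both directions. In virgin females 13 of 40 (32.5%) were higher, where 26.4% of all tested gene models were, and 8 of 40 (20%) were lower, where 21.3% of all tested gene models were. Among the tested gene models of the annotated table the corresponding shares were 27.7% and 22.4%. In either direction 21 of 40 (52.5%) were called, where 47.7% of all tested gene models and 50.1% of those in the table were, and the remaining 19 did not pass the test. Shares of called members were thus near those of all genes, and the median log2 fold change was 0.75, against 0.03 over all tested gene models. Virgin and mated pools did not overlap in 15 members (37.5%), where 43.2% of all tested gene models had no overlap. The count of higher members depended on single libraries. It was 19 without virgin replicate 2, 7 without mated replicate 10 and 7 without mated replicate 11, whereas lower members numbered 8 or 9 whichever library was left out. The share of all gene models called higher moved the same way from 26.4%, so the dependence was not confined to chitin genes. Dropping virgin replicate 2 gave 31.4%, and dropping mated replicate 10 or 11 gave 19.5%. The share of all gene models called lower ran from 15.8% to 30.6% as each library was dropped in turn. All 21 called members were still called without virgin replicate 2, and their log2 fold changes then moved by at most 0.41.

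**Figure D1:**
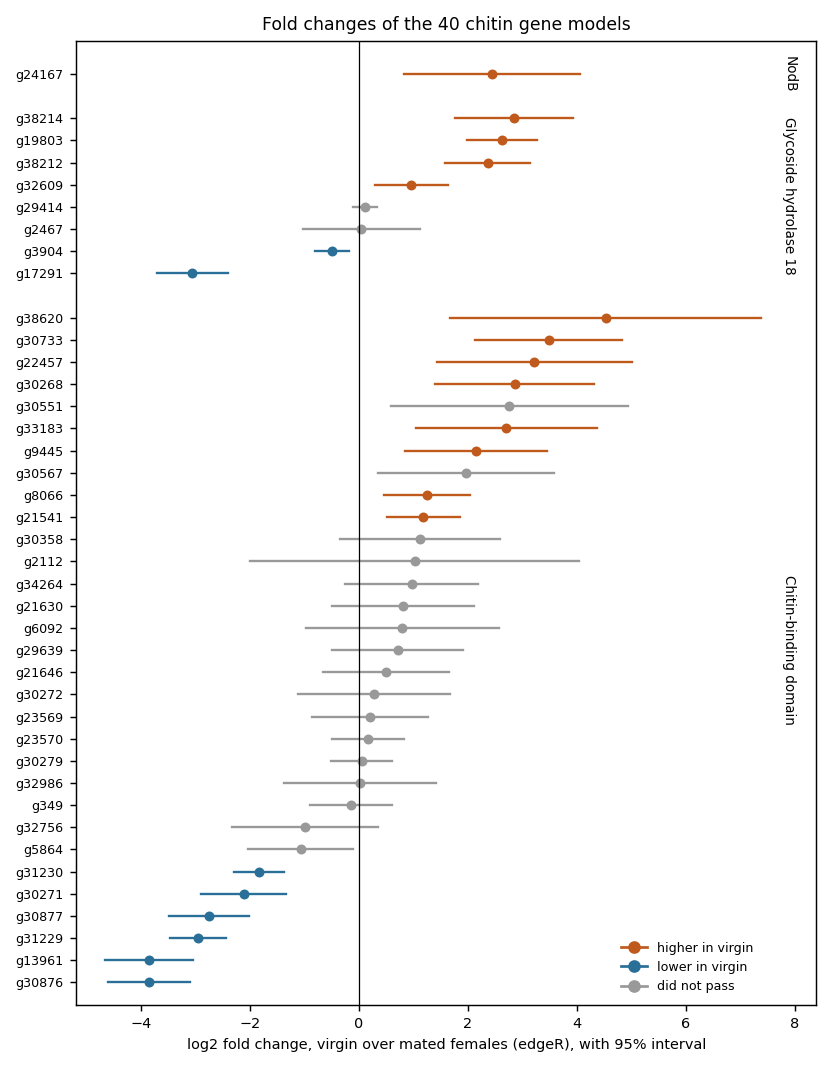
Log2 fold change of virgin over mated females for each of the 40 chitin gene models, grouped by InterPro entry, with 95% intervals from the edgeR fit. Of the 21 members called, the interval is widest for g38620, from 1.66 to 7.39, and narrowest for g3904, from -0.81 to -0.18.

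The chitin-binding domain gene models lower in virgin females numbered 6 of 31 (19.4%), where 21.3% of all tested gene models were lower. The groups did not overlap in 10 of the 31 (32.3%), where 43.2% of all tested gene models had no overlap. In the 6 lower members all virgin pools lay below all mated pools. The leading gene of the group was g31229, which had the smallest p among all 40 members. Its level was 9.41, 9.0, 9.0 and 13.1 CPM in virgin replicates 2, 3, 5 and 6, and 51.0, 75.1, 103 and 86.8 CPM in mated replicates 8, 9, 10 and 11. All virgin pools were low, virgin replicate 2 among them, and virgin replicate 6 stood somewhat above the other virgin pools. The means of the virgin and mated pools were 10.1 ± 1.97 and 78.9 ± 21.8 CPM (SD, n = 4), a 7.80-fold higher level in mated females (log2 fold change -2.96, SE 0.22, edgeR adjusted p = 0.000495). Its neighbour g31230, which also carries a chitin-binding domain, was at 29.2, 34.8, 41.3 and 44.3 CPM in virgin pools and 94.4, 133, 173 and 135 CPM in mated pools, in the same order. The groups were separated in this gene as well, with means of 37.4 ± 6.76 and 134 ± 31.9 CPM (log2 fold change -1.84, SE 0.20, adjusted p = 0.00113).

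The largest differences in this direction were in g30876 and g13961. The level of g30876 was 1.94, 0.753, 1.34 and 1.67 CPM in virgin pools and 12.9, 18.8, 28.4 and 23.1 CPM in mated pools. It was lower in virgin than in mated females by 3.86 on the log2 scale (SE 0.33, adjusted p = 0.000850). The level of g13961 was 24.4, 7.89, 13.3 and 19.3 CPM in virgin pools and 154, 203, 323 and 258 CPM in mated pools, and it fell by 3.85 (SE 0.35, adjusted p = 0.000956). These correspond to 14.6-fold and 14.5-fold higher means in mated females. Both genes were highest in mated replicate 10, and g13961 had its highest virgin value in virgin replicate 2. The neighbour of g30876, g30877, was at 5.62, 2.13, 2.58 and 3.21 CPM in virgin pools and 16.2, 21.5, 30.0 and 24.0 CPM in mated pools (log2 fold change -2.76, SE 0.32, adjusted p = 0.00133). The last of the 6, g30271, was at 8.82, 11.2, 23.6 and 10.9 CPM against 63.8, 44.5, 83.7 and 44.9 CPM. Virgin replicate 5 was the high virgin pool in g30271, still below every mated pool (log2 fold change -2.12, SE 0.34, adjusted p = 0.00273).

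**Figure D2:**
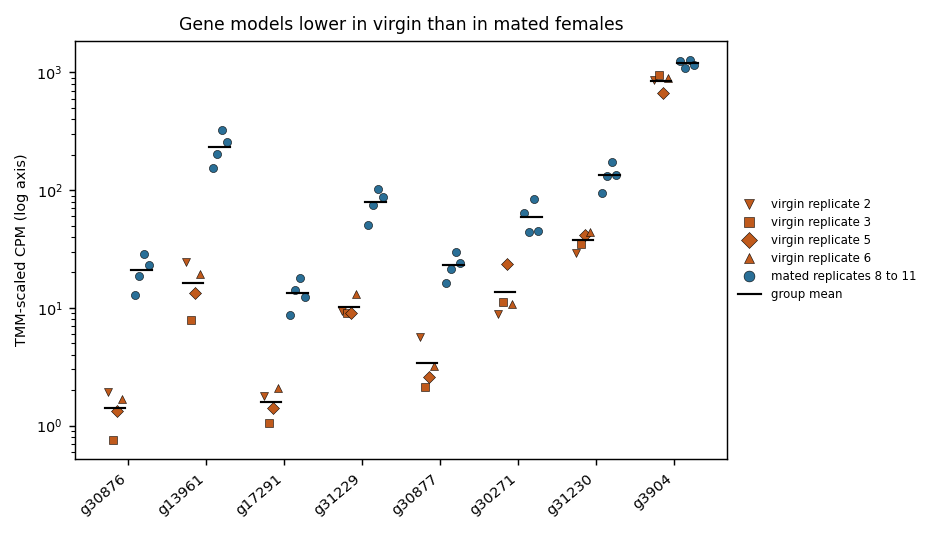
CPM (log axis) in each of the 8 pools for the 8 members lower in virgin females, 6 with the chitin-binding domain and 2 of glycoside hydrolase family 18, with the group means. In each of them every virgin pool lies below every mated pool, the gap being narrowest in g3904.

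Glycoside hydrolase family 18 gene models fell into opposite groups. In virgin females 4 of 8 (50%) were higher, 2 (25%) were lower and 2 did not pass the test. Over all tested gene models 26.4% were higher and 21.3% lower. A trio formed by g38212, g38214 and g19803 was higher, each by more than 5-fold. The level of g38212 was 73.8, 148, 149 and 158 CPM in virgin replicates 2, 3, 5 and 6 and 36.0, 33.6, 14.8 and 18.5 CPM in mated replicates 8, 9, 10 and 11. Virgin replicate 2 was the low virgin pool, about midway between the groups, and the other virgin pools were close together. The means were 132 ± 39.2 and 25.7 ± 10.6 CPM, a 5.14-fold difference (log2 fold change 2.36, SE 0.34, adjusted p = 0.00203). The gene g38214 lies on the same scaffold as g38212 and showed the same order of virgin pools, with 38.8, 116, 118 and 124 CPM against 22.7, 16.9, 5.97 and 9.47 CPM in mated pools. Its log2 fold change was 2.85 (SE 0.47, adjusted p = 0.00329), a 7.21-fold difference in the mean. The third of the trio, g19803, sits on another scaffold and was at 17.2, 31.1, 30.6 and 32.9 CPM in virgin pools and 5.63, 5.80, 3.06 and 3.65 CPM in mated pools (log2 fold change 2.62, SE 0.28, adjusted p = 0.00113). In all 3 genes virgin replicate 2 was the lowest virgin pool and still above every mated pool.

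The other higher member of the family, g32609, differed less. It was at 20.6, 43.1, 34.7 and 36.6 CPM in virgin pools and 26.9, 13.8, 13.1 and 15.6 CPM in mated pools, so that virgin replicate 2 lay below mated replicate 8. The log2 fold change was 0.96 (SE 0.29, adjusted p = 0.0274). This call was lost without mated replicate 9 (adjusted p = 0.0720), 10 (0.0834) or 11 (0.0757) and without virgin replicate 3 (0.0747), 5 (0.0604) or 6 (0.0627), in an overall range of 0.000598 to 0.0834 over the alternatives.

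The lower members of family 18 differed greatly from each other in the size of the change. The level of g17291 was 1.80, 1.05, 1.42 and 2.09 CPM in virgin pools and 8.64, 14.2, 17.9 and 12.5 CPM in mated pools. Its mean was 8.39-fold higher in mated females, and all virgin pools including replicate 2 were low (log2 fold change -3.06, SE 0.29, adjusted p = 0.000908). The gene g3904 took the most reads of any member, between 26.0% and 57.2% of the reads counted for all 40 in a library. It was at 871, 948, 663 and 900.4 CPM in virgin pools and 1250.2, 1096, 1281 and 1149.8 CPM in mated pools. The groups did not overlap, but the difference was only 1.41-fold (log2 fold change -0.50, SE 0.14, adjusted p = 0.0184).

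The remaining family 18 members did not pass the test, for different reasons in the values. The gene g29414 was nearly level, with 87.3, 86.9, 86.7 and 84.2 CPM in virgin pools and 92.2, 80.7, 70.9 and 77.1 CPM in mated pools. The 95% interval of its log2 fold change ran from -0.12 to 0.33 (log2 fold change 0.11, adjusted p = 0.396). The gene g2467 varied among virgin pools, from 23.4 CPM in replicate 2 through 51.3 and 95.9 to 143 CPM in replicate 6, and was at 75.1, 82.8, 89.0 and 58.0 CPM in mated pools. Its interval was wide, from -1.04 to 1.12 (log2 fold change 0.04, adjusted p = 0.952), so these pools do not show whether the groups differ.

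**Figure D3:**
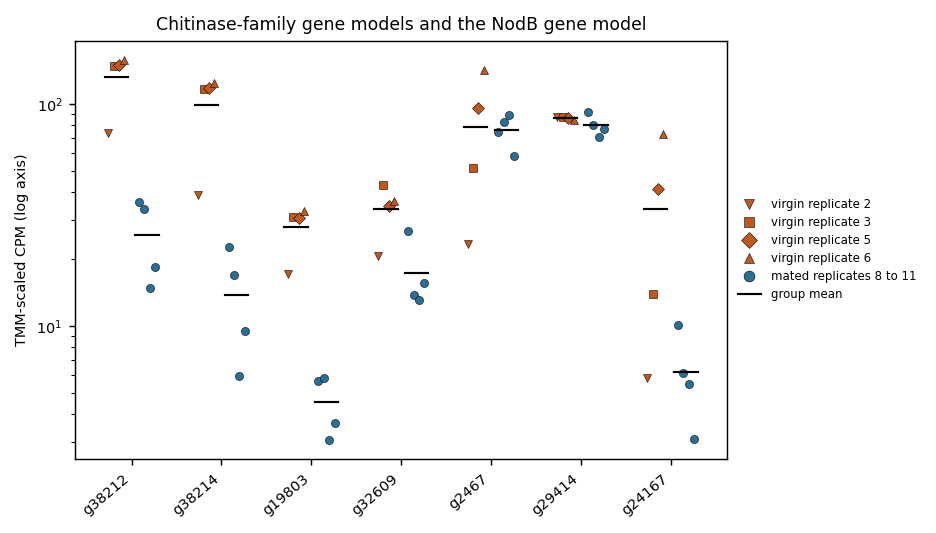
CPM (log axis) in each of the 8 pools for 6 glycoside hydrolase family 18 members and the NodB member g24167, with the group means. In g38212, g38214 and g19803 all virgin pools lie above all mated pools with virgin replicate 2 lowest, g29414 is nearly level, and g2467 and g24167 spread widely among virgin pools.

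The only member with a NodB domain, g24167, was higher in virgin females, with a large spread. Its level was 5.84, 14.0, 41.5 and 73.2 CPM in virgin replicates 2, 3, 5 and 6 and 10.1, 6.12, 5.47 and 3.10 CPM in mated replicates 8, 9, 10 and 11. Virgin replicate 2 lay within the mated pools and the other 3 virgin pools above them. The means of the virgin and mated pools were 33.6 ± 30.5 and 6.19 ± 2.89 CPM (log2 fold change 2.44, SE 0.71, adjusted p = 0.0264). The call was lost without mated replicate 9 (adjusted p = 0.0610), 10 (0.0714) or 11 (0.0722), without virgin replicate 5 (0.0561) or 6 (0.0724, with a log2 fold change of 1.73), and in limma with voom (0.0910) or on the deposited log2 CPM (0.0602). Over all alternatives its adjusted p ranged from 0.00132 to 0.0910.

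Chitin-binding domain gene models higher in virgin females numbered 8 of 31 (25.8%), where 26.4% of all tested gene models were higher. Of these, g30733, g22457 and g21541 were called under every alternative, and the groups did not overlap in them. The level of g30733 was 3.71, 10.7, 19.8 and 28.8 CPM in virgin pools and 1.08, 2.41, 0.874 and 1.27 CPM in mated pools. Virgin females had 11.2-fold more of it (log2 fold change 3.48, SE 0.59, adjusted p = 0.00371), and virgin replicates 5 and 6 were the high pools. The level of g22457 was 11.4, 42.9, 91.9 and 45.5 CPM against 7.79, 8.99, 0.645 and 3.22 CPM, a 9.28-fold difference in which virgin replicate 2 lay just above the mated pools (log2 fold change 3.22, SE 0.78, adjusted p = 0.0153, and 3.88 with sample quality weights). The more even g21541 was at 18.4, 22.4, 26.3 and 42.0 CPM against 14.6, 15.1, 9.64 and 8.75 CPM (log2 fold change 1.18, SE 0.29, adjusted p = 0.0124).

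Of the other 5 higher chitin-binding members, 4 lost the call without at least 1 library and g30268 lost it only with voom. The widest interval was that of g38620, which was at 0.140, 20.5, 14.0 and 83.9 CPM in virgin pools and 2.77, 1.34, 0.687 and 0.348 CPM in mated pools. Virgin replicate 2 was thus the lowest of all 8 pools in a gene whose other virgin pools were all above the mated ones. Its log2 fold change was 4.53 (SE 1.25, adjusted p = 0.0294). The call was lost without mated replicate 9 (0.0683), 10 (0.0805) or 11 (0.0774) or virgin replicate 6 (0.0824, with a log2 fold change of 3.17), with voom (0.303, at 3.01) and on the deposited log2 CPM (0.168, at 2.98), over a range of 0.00182 to 0.303. Without mated replicate 8 the log2 fold change was 5.2.

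The level of g33183 was 1.88, 2.78, 5.29 and 21.8 CPM in virgin pools and 1.61, 1.12, 1.27 and 0.869 CPM in mated pools. No virgin pool was below a mated one, but virgin replicate 6 set the size of the difference, which was 2.70 on the log2 scale (SE 0.73, adjusted p = 0.0201) and 1.45 without that pool (adjusted p = 0.0274). Its call was lost without mated replicate 9 (0.0506), 10 (0.0543) or 11 (0.0596) and with voom (0.0638, with a log2 fold change of 2.08), over a range of 0.000569 to 0.0638. On the deposited log2 CPM the log2 fold change was 2.0. The gene g30268 was at 3.4, 20.2, 41.3 and 36.5 CPM against 3.23, 5.34, 2.29 and 3.16 CPM (log2 fold change 2.86, SE 0.64, adjusted p = 0.00995). In g30268 only virgin replicate 2 lay within the mated pools, and the call was lost only with voom (0.0584), over a range of 3.29e-05 to 0.0584.

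Virgin replicate 2 also lay within the mated pools in g9445 and g8066. The level of g9445 was 1.43, 9.30, 10.8 and 13.4 CPM in virgin pools and 2.46, 2.36, 1.73 and 1.3 CPM in mated pools (log2 fold change 2.15, SE 0.57, adjusted p = 0.0177). That of g8066 was 20.7, 42.7, 72.4 and 55.9 CPM against 23.2, 22.9, 20.9 and 14.2 CPM (log2 fold change 1.24, SE 0.35, adjusted p = 0.020). The call of g9445 was lost without mated replicate 10 (0.0535) or 11 (0.0542), with voom (0.0814) and on the deposited log2 CPM (0.0557), over a range of 0.000180 to 0.0814. The call of g8066 was lost without virgin replicate 5 (0.0535) or 6 (0.050, just above the threshold) and without mated replicate 10 (0.0538) or 11 (0.0590), over a range of 0.000825 to 0.0590.

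The remaining 17 chitin-binding members did not pass the test, and in most of them the virgin pools lay on both sides of the mated pools. The range of virgin pools enclosed that of the mated pools in 14 of the 17, and virgin replicate 2 was the lowest of all 8 libraries in 15. Members that did not pass are by that choice more likely to have overlapping groups. Over all 31 chitin-binding members, called or not, the counts were 15 (48.4%) and 18 (58.1%). Over all tested gene models the shares were 17.31% and 11.04%. Among the 17, the highest mean CPM, with no correction for gene length, were those of g21646 and g29639. The level of g21646 was 43.1, 69.4, 189 and 239 CPM in virgin replicates 2, 3, 5 and 6 and 117, 82.2, 115 and 68.9 CPM in mated replicates 8, 9, 10 and 11 (log2 fold change 0.50, SE 0.50, adjusted p = 0.438). That of g29639 was 23.0, 65.8, 143 and 172 CPM against 67.1, 54.8, 78.7 and 46.9 CPM (log2 fold change 0.71, SE 0.53, adjusted p = 0.293). In both genes virgin replicates 5 and 6 were above every mated pool and virgin replicate 2 below every mated pool. The same order was seen in g32986, at 11.4, 20.6, 70.7 and 101 CPM against 54.3, 44.6, 66.7 and 35.8 CPM. Its log2 fold change of 0.02 had an interval from -1.38 to 1.42 (adjusted p = 0.983).

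A further 5 members missed the threshold at a log2 fold change beyond 1. The gene g30551 was at 1.35, 3.76, 18.9 and 59.1 CPM in virgin pools and 3.43, 2.73, 3.83 and 2.29 CPM in mated pools (log2 fold change 2.76, SE 0.95, adjusted p = 0.0510). A like order held for g30567, at 0.421, 2.23, 2.09 and 7.56 CPM against 0.991, 0.682, 0.853 and 0.637 CPM (log2 fold change 1.96, SE 0.71, adjusted p = 0.0531). It also held for g30358, at 14.2, 32.6, 53.9 and 159 CPM against 42.4, 23.0, 32.8 and 21.3 CPM (log2 fold change 1.12, SE 0.64, adjusted p = 0.184). In these 3 genes virgin replicate 6 was the highest pool and virgin replicate 2 the lowest of all 8. The gene g2112 was high in virgin replicate 5 alone, at 0.365, 0.491, 45.2 and 3.89 CPM against 11, 2.29, 7.01 and 4.29 CPM, and its interval ran from -2.0 to 4.04 (log2 fold change 1.02, adjusted p = 0.549). The gene g5864 went the other way, at 27.4, 11.7, 5.83 and 9.86 CPM against 26.6, 32.7, 23.5 and 32.7 CPM (log2 fold change -1.08, SE 0.42, adjusted p = 0.0662). Virgin replicate 2 was the virgin pool within the mated range in g5864.

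Leaving out virgin replicate 2 raised the share of all gene models called from 47.7% to 62.1%, and it brought 7 members past the threshold. They were g30551 (adjusted p = 0.00835), g30567 (0.00459), g21630 (0.020), g29639 (0.0238), g34264 (0.0324) and g30358 (0.0409), all higher in virgin females, and g5864 (0.000926), lower in virgin females with a log2 fold change of -1.67. The chitin-binding members called higher then numbered 14 in place of 8, and the share of all gene models higher was 31.4%. Without mated replicate 10 or 11 the higher chitin-binding members numbered 4, and 19.5% of all gene models were higher. The members g21630 and g34264, with log2 fold changes of 0.80 and 0.97 over all 8 libraries, were named after their values were seen, as were g6092 (0.79, adjusted p = 0.420), g32756 (-0.99, adjusted p = 0.195) and g349 (-0.15, adjusted p = 0.729). Of these 3, only g32756 passed under any alternative, lower in virgin females without virgin replicate 6 (adjusted p = 0.0429).

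**Figure D4:**
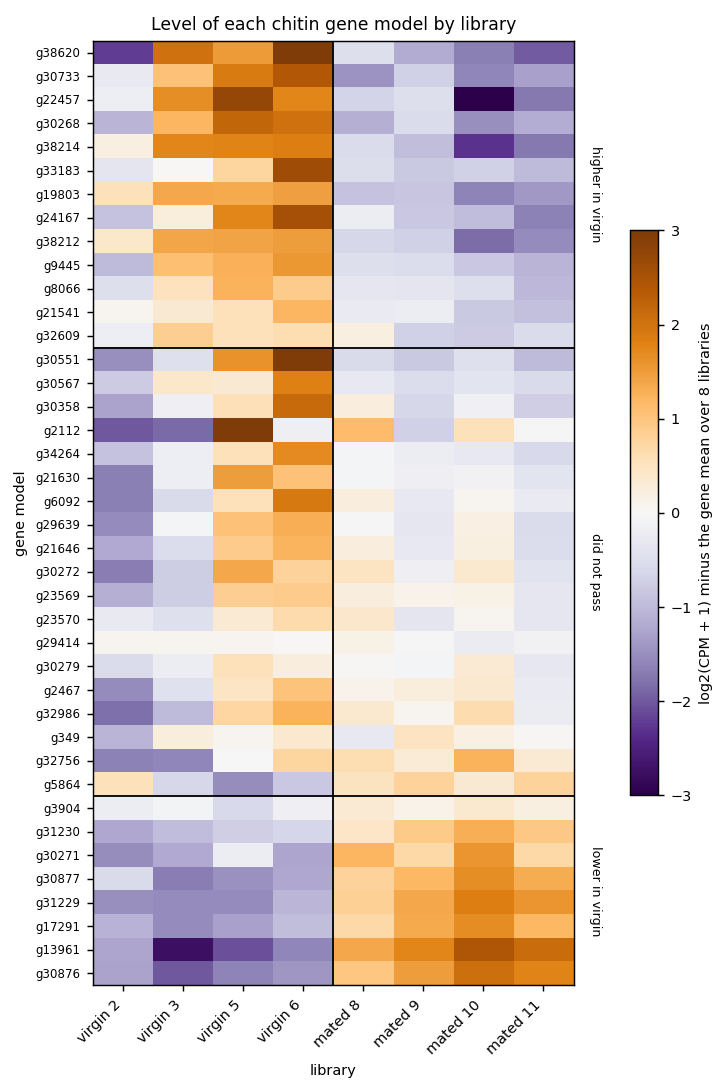
Each of the 40 chitin gene models (rows, grouped by the test into higher, not passed and lower in virgin females) in each of the 8 pools (columns), as log2(CPM + 1) minus the mean of the gene model over the pools, with colours clipped at 3 log2 units in either direction. Most members that did not pass are low in virgin replicate 2 and high in virgin replicate 5 or 6, and the mated pools differ less from each other.

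Variation among virgin pools was larger for chitin gene models than for all genes. The median ratio of the highest to the lowest virgin pool was 5.12 over the 40 members, 7.18 over the chitin-binding members and 2.04 over family 18, against 1.86 over all tested gene models. Among mated pools the median ratio was 1.86 over members and 1.44 over all tested gene models. The ratio among virgin pools was above 5 in 20 members (50%), where 12.9% of all tested gene models were, and the ratio among mated pools was above 5 in 2 members (5.0%), where 6.11% of all were. The pools also had a common order. Virgin replicates 5 and 6 were both above virgin replicates 2 and 3 in 26 of 40 members (65.0%) and in 22 of 31 chitin-binding members (71.0%), against 20.4% of all tested gene models. Virgin replicate 2 was the lowest virgin pool in 31 members (77.5%), against 39.5% of all. This order was noticed in the values and is given as a description, and the members are not independent of each other. The labels give no age, date or batch that separates virgin replicates 5 and 6 from 2 and 3.

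**Figure D5:**
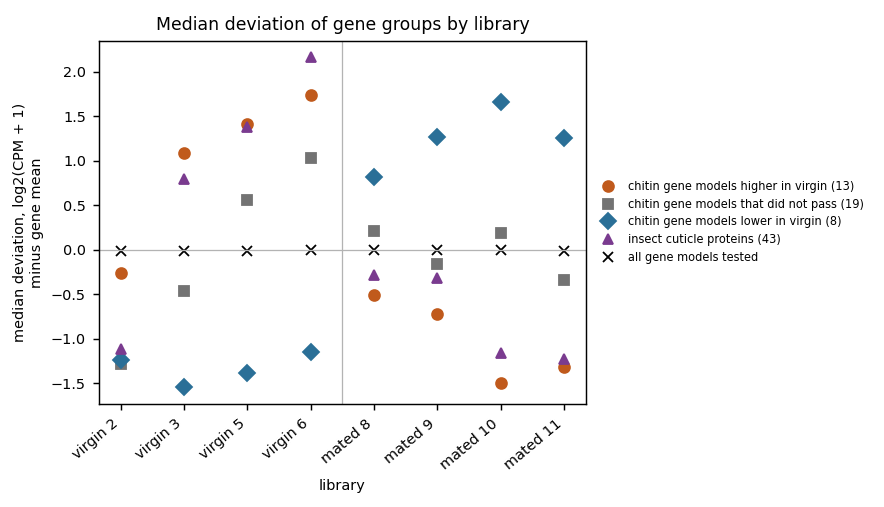
Median deviation of gene groups in each of the 8 pools, where the deviation of a gene model is its log2(CPM + 1) minus its mean over the pools, for the chitin gene models called higher, called lower and not passed, for the insect cuticle protein gene models described next and for all tested gene models. The called groups differ between virgin and mated pools because of how they were chosen. The 19 members that did not pass were chosen by the same test, which a wide spread among virgin pools makes harder to pass. They run from -1.28 in virgin replicate 2 to 1.03 in virgin replicate 6. Among the virgin pools the cuticle proteins had the same end pools, at -1.11 and 2.16.

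The summed level of the chitin-binding members showed the same order. The chitin-binding members summed to 384, 625, 1331 and 1588 CPM in virgin replicates 2, 3, 5 and 6 and to 1049, 1037, 1405 and 1017 CPM in mated replicates 8, 9, 10 and 11. The family 18 members, of which g3904 makes up most reads, summed to 1134, 1426, 1179 and 1481 CPM and to 1517, 1344, 1496 and 1345 CPM. Without g3904 the other 7 summed to 263, 478, 516 and 581 CPM in virgin pools and to 267, 248, 215 and 195 CPM in mated pools. Virgin replicates 5 and 6 were above 2 and 3 in that sum, but with g3904 virgin replicate 3 was above 5. Gene by gene, this order held in 3 of the 8 family 18 members (37.5%), against 20.4% of all tested gene models. Insect cuticle protein gene models (IPR000618), whose products bind chitin through another domain, had higher sums in virgin replicates 5 and 6 than in 2 and 3 too. They summed to 562, 2693, 10427 and 5660 CPM in virgin pools and to 1127, 1341, 1399.9 and 789 CPM in mated pools. Virgin replicates 5 and 6 were both above 2 and 3 in 27 of 43 cuticle protein gene models (62.8%), and the median ratio of the highest to the lowest virgin pool was 25.6. Of the 43, 24 (55.8%) were higher, 6 (14.0%) lower and 13 not past the threshold, where 26.4% and 21.3% of all tested gene models were higher and lower, with a median log2 fold change of 2.71. The higher count was 14 without mated replicate 10, 11 without mated replicate 11 and 14 without virgin replicate 6. It was 13 on the deposited log2 CPM and 9 with voom. Over all gene models the shares higher were 19.5%, 19.5%, 21.1%, 26.5% and 24.7% under these settings, in the same order. What part the state of the cuticle in a pool has in the chitin-binding values was not tested.

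Some members lie beside each other, and 3 neighbouring pairs were called in the same direction in both genes. The 40 members sit on 33 scaffolds of the Pcitri.v1 assembly, and 5 scaffolds hold more than 1 member. The consecutive pair g30876 and g30877 on scaffold PCITRI_00491 was lower in virgin females in both genes, as was the pair g31229 and g31230 on scaffold PCITRI_00515. The family 18 pair g38212 and g38214 on scaffold PCITRI_01064 was higher in both, and the gene model between them, g38213, had 0 counts in every library. Over all consecutive tested gene models on a scaffold, 20% of 13477 pairs were called in the same direction in both genes. These made up 76.0% of the pairs with both genes called. The pair g38212 and g38214 is not consecutive and so not of this class. Of the consecutive member pairs, g23569 with g23570 and g30271 with g30272 were not called in the same direction in both genes. The consecutive pair g23569 and g23570 on scaffold PCITRI_00136 was not called in either gene. The level of g23569 was 19.4, 25.5, 80.6 and 83.5 CPM in virgin pools and 51.4, 47.4, 49.2 and 34.3 CPM in mated pools (log2 fold change 0.20, SE 0.46, adjusted p = 0.746). That of g23570 was 18.5, 15.8, 27.9 and 35.9 CPM against 29.6, 17.1, 23.5 and 17.4 CPM (log2 fold change 0.16, SE 0.29, adjusted p = 0.663). Virgin replicates 5 and 6 were above 2 and 3 in both genes.

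Scaffold PCITRI_00457 holds 4 chitin-binding members that did not move together. There g30268 was higher and g30271 lower in virgin females, with the values above. The gene g30272, next to g30271, was at 8.60, 16.8, 78.2 and 51.5 CPM in virgin pools and 41.2, 26.4, 38.4 and 21.8 CPM in mated pools (log2 fold change 0.28, SE 0.61, adjusted p = 0.726). The gene g30279 was the steadiest of the 4, at 51.8, 67.3, 113 and 89.8 CPM against 79.1, 73.7, 96.3 and 61.7 CPM (log2 fold change 0.05, with an interval from -0.51 to 0.61, adjusted p = 0.874). Only read pairs mapping to a single place were counted, so values of near-identical neighbours are uncertain. The sources used here do not say whether counting used the strand of the reads, which leaves overlapping and antisense gene models uncertain too.

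Genes on either side of chitin in the pathway were listed by 17 InterPro entries, of which 10 had a gene model in the table and that for chitin synthase had 0. Entries such as those of trehalase, hexokinase and glucose-6-phosphate isomerase belong to sugar use in general and are not specific to chitin. Of these 31 other chitin pathway gene models 12 (38.7%) were higher in virgin females, 5 (16.1%) lower and 14 not past the threshold, against 26.4% and 21.3% of all tested gene models, with a median log2 fold change of 0.41. The higher count was 7 without mated replicate 10 or 11, where 19.5% of all gene models were higher. At the start of the pathway, glucose-6-phosphate isomerase, which makes the fructose-6-phosphate from which amino sugars are built, was represented by g30040. The means of its virgin and mated pools were 617 ± 184 and 210.2 ± 58.2 CPM (SD, n = 4, as in the values that follow; log2 fold change 1.55, SE 0.26, adjusted p = 0.00282). Trehalases, which split the blood sugar of insects into glucose, had 4 of 10 gene models higher and 1 lower. Their lower count was 3 without mated replicate 8, where 18.7% of all gene models were lower. Among them g33306 was at 10.9 ± 2.74 against 4.71 ± 0.128 CPM (log2 fold change 1.2, SE 0.21, adjusted p = 0.00303). The opposite was seen in g33307, at 158 ± 25.6 against 254 ± 35.0 CPM (log2 fold change -0.68, SE 0.15, adjusted p = 0.00713).

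At the other end of the pathway, beta-hexosaminidases cut the short sugars that chitinases release. Of 7 gene models 2 were higher in virgin females and 3 were lower. The higher ones were g1636, at 54.1 ± 1.71 against 40.8 ± 2.42 CPM (log2 fold change 0.41, SE 0.08, adjusted p = 0.00550), and g17683. The latter was at 28.9 ± 10.8 against 14.2 ± 0.876 CPM (log2 fold change 1.03, SE 0.27, adjusted p = 0.0152). Lower ones included g2987 and g14542. The gene g2987 was at 20 ± 3.69 CPM in virgin pools against 34.0 ± 2.39 CPM (log2 fold change -0.77, SE 0.14, adjusted p = 0.00398). The gene g14542 was at 2.00 ± 1.35 against 7.39 ± 0.821 CPM (log2 fold change -1.89, SE 0.47, adjusted p = 0.0138). The entry that holds chitin-active oxygenases, which cut crystalline chitin by oxidation in other organisms, had g24215 at 12.1 ± 2.69 against 5.97 ± 0.589 CPM (log2 fold change 1.02, SE 0.19, adjusted p = 0.00416).

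Other lists were counted for tissues and processes that whole insects hold beside the cuticle, against the same 26.4% higher and 21.3% lower over all tested gene models. Cuticle tanning entries had 18 of 43 gene models (41.9%) higher in virgin females and 6 (14.0%) lower. The 6 lower were all of the major royal jelly protein/protein yellow entry, which had 3 of 16 higher. Hemocyanin entries had 6 of 13 higher and 0 lower. The higher count of the tanning list was 11 without mated replicate 10 or 11, where 19.5% of all gene models were higher. Its lower count was 3 without mated replicate 10, where 16.6% of all were lower. Muscle entries (troponin, tropomyosin and myosin head) had 11 of 18 (61.1%) higher and 4 (22.2%) lower. The 4 lower were all myosin head gene models, of which others were higher, and every called troponin or tropomyosin was higher. Nuclear hormone receptor entries had 6 of 25 (24%) higher and 4 (16%) lower, close to or below the shares of all genes. The higher count of the receptors was 3 without virgin replicate 5 or 6 or mated replicate 10 or 11. Over all gene models 19.5% to 22.1% were higher under these settings. Egg and embryo related entries had 1 of 14 (7.14%) higher and 6 (42.9%) lower. The higher count of the egg and embryo list was 2 without virgin replicate 2, where 31.4% of all gene models were higher. That list pooled MCM domain (4 of 5 lower), Piwi domain (1 of 5 higher and 1 lower) and lipid transport protein gene models (1 of 4 lower). The part of these lists in the chitin values was not tested.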

How the data were processed

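RNA-seq libraries of 8 pools of whole *P. citri* females, 4 virgin and 4 mated, were analysed. The deposited counts give, for each gene model, how many read pairs mapped to it and nowhere else. The authors made them by trimming, filtering, mapping to Pcitri.v1 and counting in CLC Genomics Workbench, library by library. The authors also deposited log2 CPM values, used here in 1 alternative. A further deposited table, the source of the InterPro entries, holds the authors' log2 fold changes and adjusted p-values, which were not used. Tools named in the submitters' processing notes are FastQC, limma 3.34.9 and edgeR 3.20.9, under R 3.4.2. The sources used here do not give the filter behind that table or the prior count of the log2 CPM.

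Counts were tested in R 4.3.3 with edgeR 4.0.16 (filterByExpr, TMM, glmQLFit and glmQLFTest, two-sided, condition as the only term), and 21179 of 40620 gene models were kept. SEs are Wald errors and intervals 95%. The p-values measure the spread between pools, which the study calls biological replicates. Libraries of a group differed from each other by more than counting error, with a chi-square of at least 26.0 for each degree of freedom. The script was tested on simulated data. Alternatives used limma 3.58.1, DESeq2 1.42.0, other scalings, no filter and each library left out in turn.

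Members and gene lists were chosen with earlier results of these data known. Named were all members of IPR001223 and IPR002509, g31229, and of IPR002557 the 10 called members with the smallest p in each direction, the 6 with the highest mean CPM and those not called with a log2 fold change beyond 1, with the neighbouring members and up to 3 called members of each other list in each direction. Lists were defined by InterPro entry. Some entries had no gene model in the table. Coordinates, gene lengths and sequences were not used here, so levels are not compared between genes.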

Additional observations from a re-analysis of the deposited data

Results flagged for a closer look

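In 7 of 80 groups of 4 pools, a pool stood apart from the other 3 by more than Dixon's 95% critical value for the gap over the range. Chance alone gives about 1 in 20. All 7 were virgin groups. Virgin replicate 2 was the low pool in 3 members of glycoside hydrolase family 18. It was at 73.8 CPM in g38212, where the other virgin pools were at 148 to 158 CPM. It was at 38.8 CPM in g38214 (others 116 to 124 CPM) and at 17.2 CPM in g19803 (others 30.6 to 32.9 CPM). The pair g38212 and g38214 are neighbours, so these flags are not independent.

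The other 4 were chitin-binding members with a high pool. Virgin replicate 5 was at 45.2 CPM in g2112, where the other virgin pools were at 0.365 to 3.89 CPM, and at 23.6 CPM in g30271 (others 8.82 to 11.2 CPM). Virgin replicate 6 was at 21.8 CPM in g33183 (others 1.88 to 5.29 CPM) and at 13.1 CPM in g31229 (others 9.0 to 9.41 CPM). In g30271 and g31229 the high pool was still below every mated pool.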

How the results depend on the processing

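No paired analysis was possible because the labels give the virgin and mated pools no replicate number in common. Of 640 values of the 40 members under the alternatives, 554 kept their direction and their side of the threshold, 18 passed the threshold newly, 32 lost it and 36 changed sign. The 8 lower members were called in every setting, as were 6 of the 13 higher ones. Sign changes arose in 9 members that had not passed the test, and their cause was not tested.

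Over all tested gene models, those lower numbered 6877 with sample quality weights. With limma voom, higher members numbered 8 and higher chitin-binding members 4, where 24.7% of all tested gene models were higher. The NodB member was called 0 times with limma voom and 0 times with limma on the deposited log2 CPM. With each library left out in turn, gene models higher in virgin females ran from 4217 to 6891 and lower from 3438 to 6724. Higher members ran from 7 to 19 and lower members from 8 to 9. Chitin-binding members ran from 4 to 14 higher and from 6 to 7 lower, family 18 members from 3 to 4 higher, and the NodB member from 0 to 1.

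Log2 fold changes that turned were, on the deposited log2 CPM, -1.09 for g2112, -0.26 for g2467, -0.021 for g6092, -0.090 for g23569, -0.18 for g30272, -0.0064 for g30279 and -0.46 for g32986. With voom they were -1.03 for g2112, -0.24 for g2467, -0.058 for g23569, -0.13 for g30272 and -0.43 for g32986. With sample quality weights they were 0.084 for g349, -1.26 for g2112 and -0.13 for g32986. With upper quartile scaling they were -0.039 for g2467, -0.029 for g30279 and -0.063 for g32986, which was at -0.0022 with DESeq2 and -0.0049 without a filter. With a library left out, the range was -0.30 to 0.087 for g349, -1.96 to 1.45 for g2112, -0.42 to 0.33 for g2467, -0.29 to 1.16 for g6092, -0.12 to 0.46 for g23569, -0.070 to 0.33 for g23570, -0.32 to 0.60 for g30272, -0.17 to 0.20 for g30279 and -0.55 to 0.34 for g32986. Members at about 1 CPM in a group rest on few reads there. Mated pools had 22 to 41 counts in g30567, 30 to 61 in g33183, 38 to 99 in g30733 and 12 to 98 in g38620. Virgin pools had 23 to 69 counts in g30876, and virgin replicate 2 had 5 in g38620.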
